A study of Mus musculus with 7 samples.

Results

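The proteasome genes described here are the protein-coding genes whose symbols run Psma to Psmg followed by a number. There were 48 of them among the 55364 genes in the deposited table, 21846 of which were protein-coding. The rule uses symbol and biotype and no measured value, though it was set with earlier results of these data known. By role they split into 14 constitutive 20S genes (Psma1 to Psma7 and Psmb1 to Psmb7), 5 immunoproteasome genes (Psmb8, Psmb9, Psmb10, Psme1 and Psme2), 17 19S genes (6 Psmc and 11 Psmd) and 12 others, among them further caps, an inhibitor, assembly chaperones and tissue-restricted subunits. The RNA came from CD45+CD3+CD4+ T cells sorted by flow cytometry out of orthotopic lung tumours of C57BL/6 mice that were over 8 weeks old and had received tamoxifen. In all of them the I-Ab gene, which encodes an MHC class II chain, was flanked by loxP sites. Control mice (I-AbF/F, 5 libraries) carried no Cre. Cre mice (I-AbF/FCol1a2-cre, 2 libraries) carried it under the Col1a2 promoter, which is active in fibroblasts, so the deletion was not aimed at the sorted T cells. The series describes the libraries as biological replicates matched for gender and age, and with 2 Cre libraries the spread within that group is poorly known.

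The proteasome is the protease that degrades proteins tagged with ubiquitin. Its 20S core is a barrel of stacked rings: alpha subunits form the outer rings and gate the entrance, and beta subunits form the inner rings, where Psmb5, Psmb6 and Psmb7 carry the active sites. The 19S particle sits on the end of the barrel. Its Psmc subunits are ATPases that unfold the substrate and push it in, and its Psmd subunits bind ubiquitin, remove it or hold the particle together. Lymphocytes and cells exposed to interferon-gamma replace the active beta subunits with Psmb8 (for Psmb5), Psmb9 (for Psmb6) and Psmb10 (for Psmb7), which shifts the peptides made toward those that MHC class I can present. Psme1 and Psme2 form the 11S (PA28) cap, which is also induced by interferon-gamma.

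Values are counts at transcript 3′ ends, summed per gene. CPM is the count scaled to 1000000 counts of the library, and whether groups overlap is judged in CPM throughout. Totals ran from 1484655 to 1724346 in Control and were 1929899 and 1449739 in Cre. All 10 CD4 T cell markers had counts in both groups, and their summed level was 4882 to 6351 CPM for Control, against 6183 and 4991 CPM for the Cre pair. The fitted change was above 0 for 5 of them and below for 5. Some were low in Cre replicate 2 alone. Cd3e had 51 to 405 counts per Control library and 116 and 3 in Cre. Cd3g had 69 to 496 and 513 and 42, and Cd2 had 151 to 648 and 254 and 48. Of the markers of other cell types, Ms4a1, Adgre1, C1qc, Krt8, Krt18, Cdh5 and Ncr1 had no count in any library. Others had some. The NK marker Klrd1 had 1 to 152 counts per Control library and 131 and 105 in Cre. Klrb1c, also an NK marker, had 0 to 28 counts per Control library and none in Cre. Of the CD8 T cell markers, Cd8a had 0 to 1 and Cd8b1 0 to 15 counts per Control library, and neither had any in Cre. Pecam1 (endothelial) had 28 to 102 counts per Control library and 128 and 9 in Cre. Cdh1 (epithelial) had 0 to 41 and 49 and 2. The 9 macrophage and monocyte markers summed to 6831 CPM in Control replicate 5, where Apoe alone had 10867 counts, and without Apoe to 155 to 356 CPM over the Control libraries, against 412 and 317 CPM over the Cre pair. Most of the latter was Ctss, and the 7 markers left without it summed to 12.9 to 45.8 CPM over the Control libraries, against 1.04 and 4.14 CPM. The sum of the 6 fibroblast markers was 160 to 575 CPM for Control, against 276 and 53.1 CPM for the Cre pair. Single markers differed from this sum. Col1a2, whose promoter drove Cre, had 40 to 336 counts per Control library and 7 and 2 in Cre (fitted log2 fold change -5.28). Col1a1 had 103 to 188 and 84 and 6. For both genes the Cre values lay under the Control range in CPM. Dcn, with 7 to 257 and 364 and 41, overlapped between the groups, as did Col3a1, Pdgfra and Lum. The part of these other cell types in the results was not tested. Of the 9854 genes tested, 1.14% to 16.1% had no count in a given Control library, against 25% and 33.6% in the Cre libraries. Among the 46 proteasome genes tested, 0 to 4 had no count in a given Control library, 6 had none in Cre replicate 1 and 5 had none in Cre replicate 2. Psma8, a testis subunit, had no count anywhere, and Psmb11, the thymic beta subunit, had 1 count, in Cre replicate 2. Both were left out of the test.

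Short promoter windows are shown for an immunoproteasome gene and for constitutive catalytic subunits, because these are the genes that interferon signalling and the proteasome's own feedback factor are known to drive. The capitals mark a match to 1 of 2 patterns: ISRE (GAAA, any 2 bases, then GAAA, bound by IRF factors) and ARE (TGACNNNGC, bound by Nfe2l1 and Nfe2l2). Sequences are from RefSeq on GRCm38.p6, the same build as mm10, printed 5′ to 3′ on the gene's strand. Both strands were searched from 250 bases before to 50 bases after the RefSeq start.
Psme1 ISRE on the opposite strand, chr14:55578495-55578520: agctgtgcTTTCGCTTTCccttcccg
Psmb5 ARE, chr14:54618026-54618050: tgaagttgTGACGTCGCggcgttgc
Psmb6 ARE, chr11:70525340-70525364: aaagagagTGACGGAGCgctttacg
Promoters were at hand for 40 of the 48 genes. Of the 5 immunoproteasome promoters 1 held the ISRE letters and 0 the ARE letters, and of the 11 20S promoters 1 and 2 did. Across all 27025 promoters the shares were 3.99% and 14%. The Psme1 window lies at a gene that was low in both Cre libraries, and the Psmb5 and Psmb6 windows at genes whose levels overlapped between the groups, as described next. A match of letters is no measure of binding.

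Among the immunoproteasome genes, the PA28 cap subunit Psme1 was low in both Cre libraries, while the catalytic subunit Psmb9 was high in both. Psmb8 lay low but within the Control range, and Psmb10 and Psme2 differed too much between the Cre libraries to place. None of the 5 passed edgeR's test, while Psme1 had an unadjusted p under 0.05 and was called by DESeq2.

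Psme1 (chr14:55578123-55581529, plus strand) had 315, 254, 329, 536 and 293 counts in Control replicates 1 to 5, in that order as for every gene below, against 126 and 59 for the Cre pair, replicate 1 first. Every Control library was above both Cre libraries, also in CPM. The level was 210 ± 57.4 CPM (SD, n = 5) in Control and 53.0 ± 17.4 CPM (SD, n = 2) in Cre, a log2 fold change of -1.98 ± 0.57 (SE) with an adjusted p of 0.359 by edgeR's quasi-likelihood test, the main test here. DESeq2, an alternative test, called it at an adjusted p of 0.0136, and lost the call without Control replicate 4 or without Cre replicate 2. The authors' deposited table gives a fold of 0.273 and an FDR of 0.0113. In bulk RNA, fewer cells that express a gene and less of its RNA in each cell cannot be told apart, here or for any gene below.

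Psme2 (chr14:55587441-55591113, minus strand), the partner of Psme1 in the same ring and its neighbour 5911 bases away, had 348, 487, 338, 518 and 393 counts over the Control libraries, against 549 and 60 over the Cre pair. In CPM, Cre replicate 1 (284) lay within the Control range of 206 to 328 and Cre replicate 2 (41.4) far below it. The level was 257 ± 55.1 CPM for Control, against 163 ± 172 CPM for Cre (log2 fold change -0.63 ± 0.63, edgeR adjusted p 0.748). Without Cre replicate 2 the fitted change turned to 0.20. The transcript end of Psme2 shares 66.8% of its 50-base stretches with Psme2b and Gm7928, so reads could be split among these copies. Psme2b was also lowest in Cre replicate 2, with 410 to 614 counts over the Control libraries and 531 and 202 over the Cre pair.

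Psmb9 (chr17:34181987-34187764, minus strand), the beta-1i subunit in the MHC class II region, had 210, 280, 277, 264 and 302 counts over the Control libraries, against 434 and 394 over the Cre pair. Both Cre libraries were above every Control library. The level was 164 ± 26.4 CPM for Control, against 248 ± 33.2 CPM for Cre (log2 fold change 0.61 ± 0.43, edgeR adjusted p 0.577).

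Psmb8 (chr17:34197721-34201454, plus strand), the beta-5i subunit 9956 bases from Psmb9, had 832, 504, 215, 537 and 716 counts over the Control libraries, against 388 and 206 over the Cre pair. Control replicate 3 lay below both Cre libraries in CPM, and the other 4 Control libraries lay above both. The level was 343 ± 139 CPM for Control, against 172 ± 41.7 CPM for Cre (log2 fold change -1.0 ± 0.54, edgeR adjusted p 0.433). The log2 ratio of Psmb8 to Psmb9 counts was 1.98, 0.85, -0.36, 1.02 and 1.24 in Control and -0.16 and -0.93 in Cre. These 2 neighbouring genes thus had fitted changes of opposite sign, and the ratio of Control replicate 3 lay between the Cre values.

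Psmb10 (chr8:105935735-105938444, minus strand), the beta-2i subunit, had 432, 118, 117, 166 and 196 counts over the Control libraries, against 324 and 7 over the Cre pair. The groups overlapped, with Cre replicate 1 above all Control libraries but replicate 1 and Cre replicate 2 far under the Control range. The level was 125 ± 75.8 CPM for Control, against 86.4 ± 115 CPM for Cre (log2 fold change -0.53 ± 1.02, edgeR adjusted p 0.905). The fitted change turned to 0.45 without Cre replicate 2 and was -4.68 without Cre replicate 1.

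**Figure D1:**
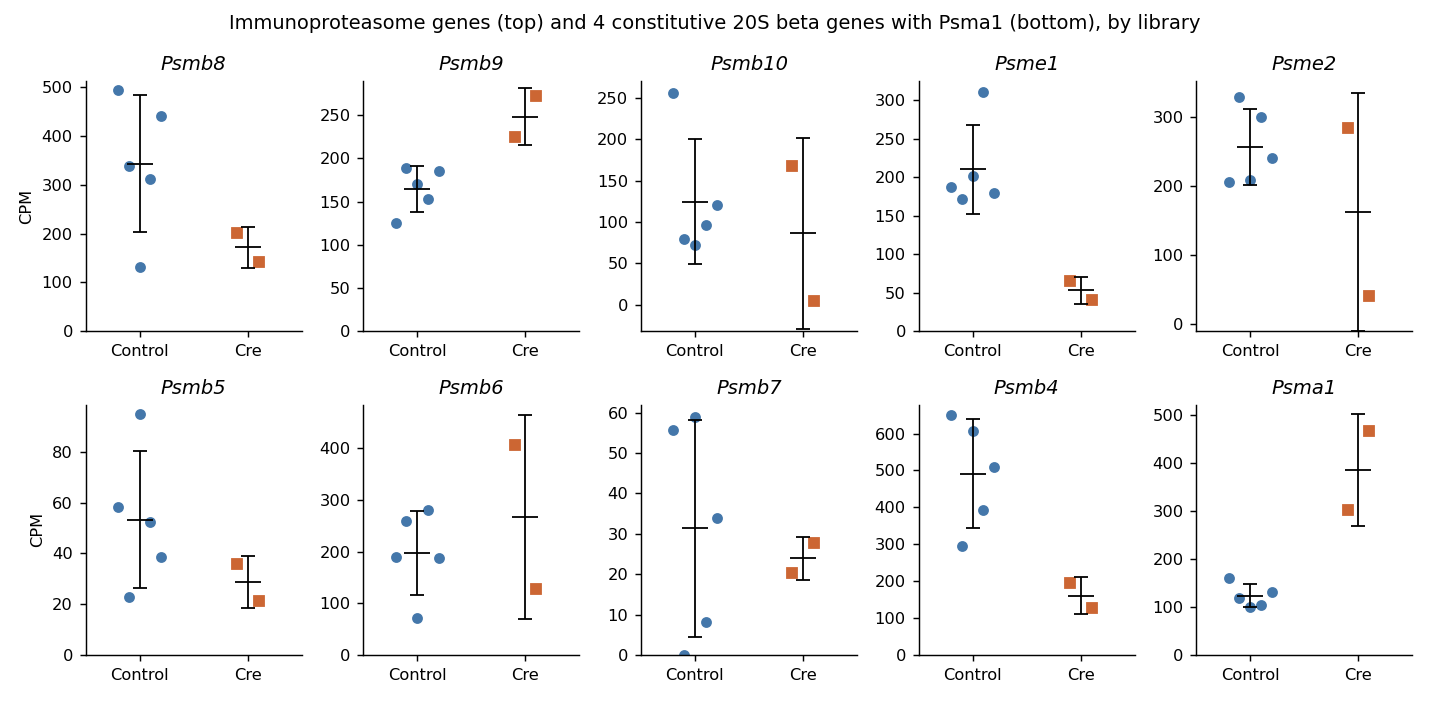
Level in CPM (vertical, linear, with its own scale for each gene) of the 5 immunoproteasome genes in the top row and of Psmb5, Psmb6, Psmb7, Psmb4 and Psma1 in the bottom row, with circles for Control libraries, squares for Cre libraries and bars for the mean and SD. Both Cre points lie under every Control point for Psme1 and Psmb4 and over every Control point for Psmb9 and Psma1, while they lie far apart for Psmb10 and Psme2.

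Of the induced catalytic subunits only Psmb9 separated the groups, and none of their constitutive partners did. Psmb5, which carries the chymotrypsin-like site, had 98, 34, 154, 90 and 63 counts over the Control libraries, against 69 and 31 over the Cre pair. All of these lay in 1 overlapping range (53.3 ± 26.8 against 28.6 ± 10.2 CPM, log2 fold change -0.89 ± 1.12, edgeR adjusted p 0.821). The transcript end of Psmb5 shares 54.5% of its 50-base stretches with the pseudogene Gm3375, which held 107 to 366 counts over the Control libraries and 148 and 25 over the Cre pair. Psmb6, the caspase-like subunit, had 318, 385, 116, 482 and 306 counts over the Control libraries, against 786 and 186 over the Cre pair. Cre replicate 1 was the highest of the 7 libraries and Cre replicate 2 was within the Control range (197 ± 81.6 against 268 ± 197 CPM, log2 fold change 0.46 ± 0.59, edgeR adjusted p 0.83, and -0.61 without Cre replicate 1). Psmb7, the trypsin-like subunit, had 94, 0, 96, 14 and 55 counts over the Control libraries, against 39 and 40 over the Cre pair, so the Cre values lay inside the Control range. Its fitted change of -0.40 ± 1.73 had an edgeR adjusted p of 0.961 and turned to 2.21 with the replicate number as a block, to 0.86 with limma voom and to 0.49 with voom and library weights.

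The balance of the induced over the constitutive catalytic genes was read as the log2 ratio of the summed counts of Psmb8, Psmb9 and Psmb10 to those of Psmb5, Psmb6 and Psmb7. Since counts were not divided by length, only its difference between libraries is read. It was 1.53, 1.11, 0.73, 0.72 and 1.52 in Control and 0.36 and 1.24 in Cre. Cre replicate 1 was under every Control library and Cre replicate 2 in their midst, so the group means of 1.12 ± 0.40 and 0.80 ± 0.62 differed by less than the spread within either group. The difference of -0.32 became 0.01 once counts of the Psmb5 copy were added to Psmb5, and 0.27 with Psmb1 to Psmb7 in the denominator. It was -0.76 without Cre replicate 2 and 0.12 without Cre replicate 1.

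In the 20S core the alpha genes Psma1 and Psma2 lay above all Control libraries in both Cre libraries, and the beta genes Psmb4 and Psmb1 lay below them. The fitted change was above 0 for 4 of 7 alpha genes (median log2 fold change 0.11) and for 2 of 7 beta genes (median -0.40). Over all 9854 genes tested the median was -0.39, and 60.1% of genes had a fitted change under 0. Over the 4458 genes between 30 and 300 CPM, a range that holds the median proteasome gene (89.9 CPM), the median fold change was -0.08 and 52.6% were under 0.

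Psma1 (chr7:114264606-114276118, minus strand), an alpha ring subunit, had 272, 175, 165, 181 and 213 counts over the Control libraries, against 585 and 678 over the Cre pair. The lower Cre library was well above the highest Control library. The level was 123 ± 24.2 CPM for Control, against 385 ± 116 CPM for Cre, a log2 fold change of 1.64 ± 0.43 with an edgeR adjusted p of 0.323. DESeq2 called it at an adjusted p of 0.00686 with a log2 fold change of 1.76, and lost the call only when Cre replicate 2 was left out, of the 7 libraries left out in turn. The authors' deposited table gives a fold of 3.36 and an FDR of 0.00372.

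Psmb4 (chr3:94884093-94886961, minus strand), a beta ring subunit without an active site, had 1097, 436, 986, 680 and 828 counts over the Control libraries, against 378 and 182 over the Cre pair. Both Cre libraries lay under the lowest Control library. The level was 491 ± 148 CPM for Control, against 161 ± 49.7 CPM for Cre (log2 fold change -1.61 ± 0.47, edgeR adjusted p 0.36). DESeq2 called it at an adjusted p of 0.0225, a call that was lost without Control replicate 1, without Control replicate 3 and without Cre replicate 2, while the authors' deposited table gives an FDR of 0.0865. Psmb1, another beta subunit without an active site, had 380, 289, 415, 422 and 368 counts over the Control libraries, against 258 and 265 over the Cre pair. In CPM both Cre libraries were again below all Control libraries, by a smaller margin (229 ± 23.1 against 158 ± 34.7 CPM, log2 fold change -0.53 ± 0.43, edgeR adjusted p 0.658).

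The other core genes named by the rule overlapped between the groups or were set apart by 1 Cre library. Psma5, an alpha subunit, had 39, 174, 121, 36 and 118 counts over the Control libraries, against 54 and 589 over the Cre pair. Only Cre replicate 2 was high, and the fitted change of 1.82 ± 0.90 (edgeR adjusted p 0.429) turned to -1.06 without it. Psmb3, a beta subunit, had 125, 85, 114, 242 and 59 counts over the Control libraries, against 444 and 34 over the Cre pair, which put the Cre libraries on opposite sides of the Control range (log2 fold change 0.76 ± 0.87, edgeR adjusted p 0.796, and -1.68 without Cre replicate 1). Psma6 had 20, 7, 237, 72 and 109 counts over the Control libraries, against 0 and 51 over the Cre pair, with overlapping groups (log2 fold change -1.62 ± 1.82, edgeR adjusted p 0.793, and -9.48 without Cre replicate 2). Psma7 had 409, 365, 327, 305 and 182 counts over the Control libraries, against 423 and 202 over the Cre pair (log2 fold change -0.13 ± 0.50, edgeR adjusted p 0.958). Its change turned to 0.20 without Cre replicate 2 and to 0.02 without Control replicate 1. In CPM, the steadiest member in Control was Psma2, with a coefficient of variation of 3.51%. Named after its values were seen, Psma2 had 398, 371, 417, 414 and 412 counts. Its Cre counts of 578 and 513 were above all of these, and the fitted change was 0.41 ± 0.37 (edgeR adjusted p 0.706).

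Of the 6 19S ATPase genes, 3 (Psmc3, Psmc4 and Psmc5) had both Cre libraries under all Control ones. The fitted change of the other 3 was above 0. For Psmc4 the separation rests on 1 count in Control replicate 2 against 0 in Cre, which is within counting error. Of the 11 non-ATPase genes, Psmd6 alone was under all Control libraries, and the fitted change of 7 was above 0. Among all genes tested 10.9% lay under, and the difference between the ATPase and non-ATPase genes was not tested. The median log2 fold change was -0.40 for the ATPase genes, 0.25 for the non-ATPase genes and 0.25 for all 17, and the last turned to -0.15 without Cre replicate 2.

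Psmd6 (chr14:14112174-14120984, minus strand), a structural lid subunit, had 30, 145, 46, 57 and 192 counts in Control and none in either Cre library. Every Control library was thus above both Cre libraries. A limit of 3 counts over both Cre libraries, for counting error only, is 0.888 CPM. The Control level of 59.0 ± 45.5 CPM was at least 66.4-fold above this floor, or 49.8-fold without Control replicate 5. The fitted log2 fold change, which depends on the prior count, was -9.57 ± 2.26 with an unadjusted p of 0.00139 and an adjusted p of 0.277 by edgeR, the smallest adjusted p of any proteasome gene. DESeq2 gave an adjusted p of 0.000272 and kept the call with each of the 7 libraries left out. The authors' deposited table gives an FDR of 0.000188. Its counts came from 2 regions, and the larger (chr14:14113661-14114154) held 52.6% of them and covered 245 exon bases and 0 bases of annotated 3′ UTR in GENCODE M21.

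Among the ATPases, Psmc4 had 62, 1, 43, 4 and 89 counts over the Control libraries and none in Cre. Control replicates 2 and 4 were themselves close to 0. The Control mean of 24.2 ± 23.0 CPM was at least 27.2-fold above the same Cre floor, or 18.6-fold without Control replicate 5. The edgeR adjusted p was 0.422. The DESeq2 adjusted p was 0.0232 and stayed under 0.05 only without Control replicate 2 or without Control replicate 4. The authors' deposited table gives an FDR of 0.0226.

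Psmc5 had 231, 75, 116, 189 and 59 counts over the Control libraries, against 0 and 18 over the Cre pair, so that every Control library was above both (80.9 ± 41.8 against 6.21 ± 8.78 CPM). The log2 fold change was -3.75 ± 1.57 with an edgeR adjusted p of 0.426, and -10.11 without Cre replicate 2. The DESeq2 adjusted p was 0.0406 and stayed under 0.05 only without Control replicate 5 or without Cre replicate 2. The authors' deposited table gives an FDR of 0.0867. Psmc3 had 309, 553, 376, 487 and 428 counts over the Control libraries, against 280 and 121 over the Cre pair. Its groups did not overlap in CPM either (266 ± 70.1 against 114 ± 43.6 CPM, log2 fold change -1.20 ± 0.48, edgeR adjusted p 0.422, DESeq2 adjusted p 0.179). The other ATPase genes named by the rule, Psmc2 and Psmc6, went the other way in the fit. Psmc2 had 69, 126, 141, 110 and 69 counts over the Control libraries, against 144 and 178 over the Cre pair (log2 fold change 0.63 ± 0.76, edgeR adjusted p 0.808). Psmc6 had 227, 94, 88, 277 and 117 counts over the Control libraries, against 491 and 151 over the Cre pair (log2 fold change 0.89 ± 0.65, edgeR adjusted p 0.609, and 0.10 without Cre replicate 1). Both overlapped between the groups, Psmc2 in CPM though not in raw counts (74.6 CPM in Cre replicate 1 against 86.7 CPM in Control replicate 3).

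Of the non-ATPase genes, the ubiquitin receptor Psmd4 had 962, 426, 356, 755 and 413 counts over the Control libraries, against 910 and 1041 over the Cre pair, with overlap (log2 fold change 0.73 ± 0.45, edgeR adjusted p 0.494). Psmd11, a lid subunit, had 170, 350, 165, 170 and 247 counts over the Control libraries, against 797 and 231 over the Cre pair, where only Cre replicate 1 was high (log2 fold change 1.08 ± 0.54, edgeR adjusted p 0.429, and 0.23 without that library). Psmd14, the deubiquitinase of the lid, had 32, 167, 228, 217 and 105 counts over the Control libraries, against 152 and 2 over the Cre pair, where only Cre replicate 2 was low (log2 fold change -1.16 ± 1.24, edgeR adjusted p 0.775, and -0.16 without that library). Psmd1, a scaffold subunit named after its values were seen, was the non-ATPase gene with both Cre libraries above all Control libraries, at 192 and 205 counts against 124, 14, 44, 0 and 135 (log2 fold change 1.64 ± 1.34, edgeR adjusted p 0.666).

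**Figure D2:**
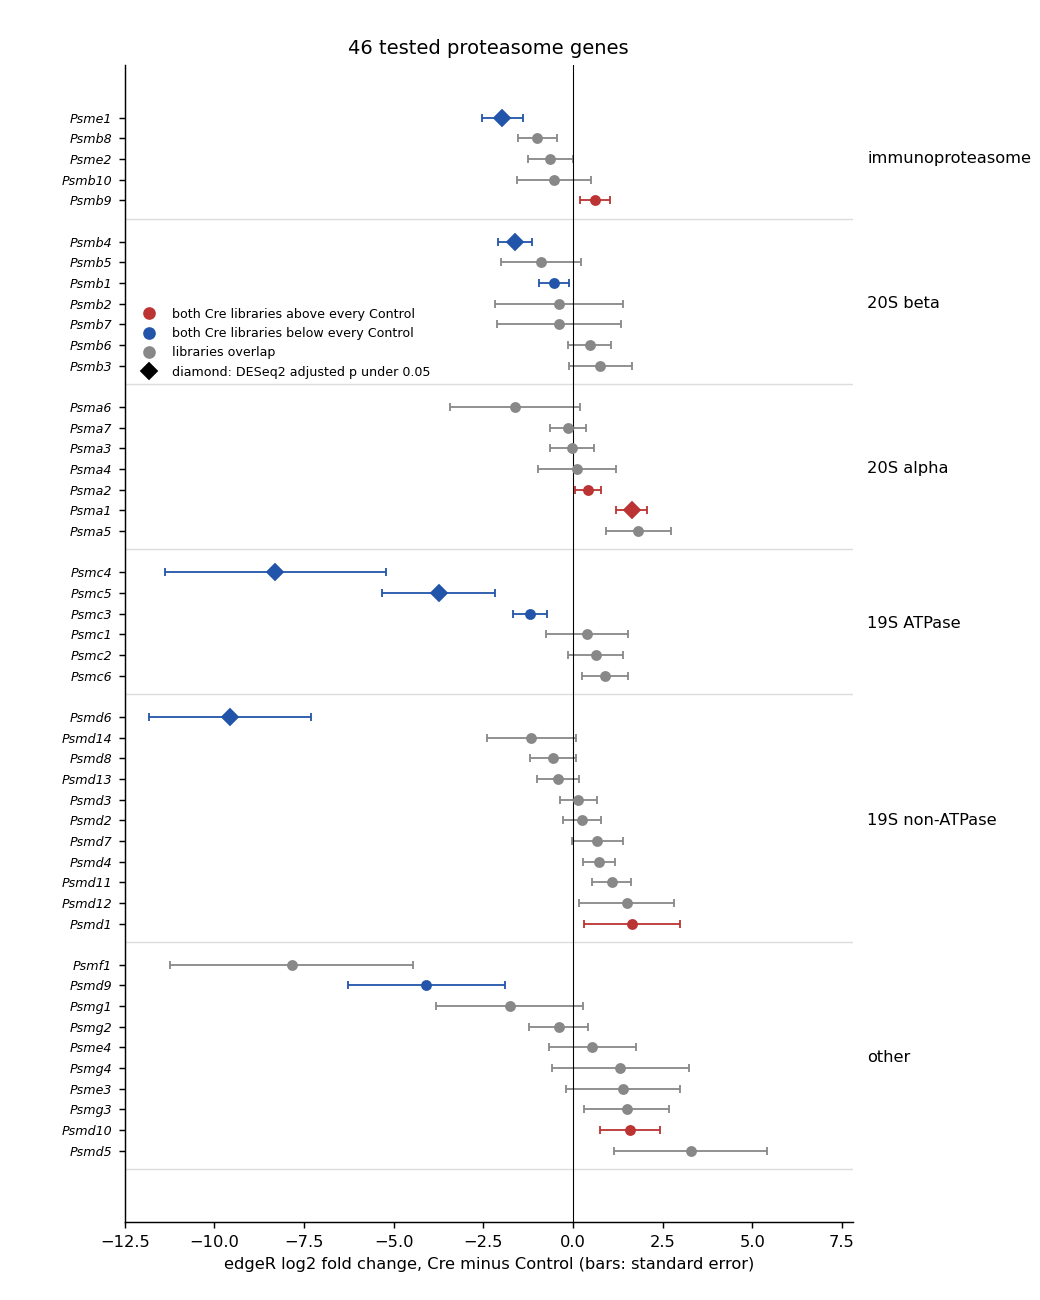
Fitted log2 fold change, Cre minus Control (horizontal), with its SE as bars, for the 46 proteasome genes tested, grouped by role, with colours for both Cre libraries above (red), below (blue) or overlapping (grey) the Control range and diamonds for DESeq2 calls. Changes lie on both sides of 0 in every group, and the genes farthest to the left are Psmd6, Psmc4 and Psmf1, which had no count in Cre.

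The remaining genes include regulators of the core and assembly factors, and their counts were the most scattered between Control libraries. Psmf1 (PI31), which can inhibit the core, had 42, 19, 2, 79 and 0 counts over the Control libraries and none in Cre. Control replicate 5 was also at 0, so the groups overlapped, and the Control mean of 17.0 ± 19 CPM was at least 19.1-fold above the Cre floor, or 11-fold without Control replicate 4 (edgeR adjusted p 0.427, DESeq2 adjusted p 0.086). Psmd9 and Psmd10 are chaperones that help to assemble the ATPase ring. Psmd9 had 43, 9, 24, 8 and 48 counts over the Control libraries, against 2 and 1 over the Cre pair, below every Control library (log2 fold change -4.09 ± 2.20, edgeR adjusted p 0.433). Psmd10, known as gankyrin, had 108, 58, 66, 75 and 27 counts over the Control libraries, against 257 and 166 over the Cre pair, above every Control library (40.8 ± 16.9 against 124 ± 13.2 CPM, log2 fold change 1.59 ± 0.83, edgeR adjusted p 0.431). Psmd5, the third chaperone of this kind, had 23, 1, 0, 41 and 0 counts over the Control libraries, against 0 and 227 over the Cre pair, so its fitted change of 3.28 ± 2.14 (edgeR adjusted p 0.528) turned to -6.73 without Cre replicate 2. The chaperones of one assembly step thus had fitted changes of both signs. The 20S assembly chaperones Psmg1 to Psmg4 and the caps Psme3 and Psme4 overlapped between the groups. The 18 tested genes outside the naming rule had fitted changes from -1.77 (Psmg1) to 1.64 (Psmd1), 12 above 0 and 6 below, and their smallest edgeR adjusted p was 0.647. Of these 18, 16 overlapped between the groups, all but Psma2 and Psmd1.

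Counted over all 46 genes tested, edgeR called 0 higher and 0 lower, against 0.0% higher and 0.0101% lower among all genes tested. At an unadjusted p under 0.05, edgeR had 1 higher and 7 lower, where the background shares were 1.41% and 10.2%. DESeq2 called 1 higher (Psma1; background 0.355%) and 5 lower (Psmd6, Psme1, Psmb4, Psmc4 and Psmc5, which is 10.9%; background 6.16%). Limma voom called 0 members, with a background of 0.0304% higher and 0.0% lower. In the authors' deposited table, which gives a p for 47 of the genes, 1 was higher and 3 lower at an FDR under 0.05, and the background there was 0.211% and 3.64%.

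The Cre pair lay above all Control libraries for 5 of the 46 genes (10.9%), namely Psma1, Psma2, Psmb9, Psmd1 and Psmd10, where the share among all genes tested was 4.05%. They lay below for 8 (17.4%), namely Psmb1, Psmb4, Psme1, Psmc3, Psmc4, Psmc5, Psmd6 and Psmd9, where that share was 10.9%. Psmc4 is among the 8 by 1 count in Control replicate 2, within counting error. Among genes of 30 to 300 CPM the shares were 5.61% and 11.2%. No count in either Cre library was seen for 3 of 46 genes (6.52%), against 13.7% of all genes tested. Of the 38 proteasome genes with a count in every Control library, 2 (5.26%) had none in Cre, close to the 5.38% among all such genes.

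Summed over a class, levels differed less than those of single genes. The 48 genes together took 5889 ± 429 CPM in Control (SD, n = 5) and 6109 ± 489 CPM in Cre (SD, n = 2). The Cre sums of 5763 and 6454 lay within or at the edge of the Control values of 6450, 6113, 5305, 5868 and 5712. For the whole gene set the group means thus differed by less than the spread of the libraries.

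The immunoproteasome genes summed to 1268, 1107, 785, 1172 and 1167 CPM for Control, against 944 and 501 CPM for the Cre pair. Cre replicate 2 was under every Control library, and Cre replicate 1 was above Control replicate 3. For the Psme1 and Psme2 pair alone, the sums were 393, 499, 410, 611 and 421 CPM for Control, against 350 and 82.1 CPM for the Cre pair, below all Control libraries in both. Psmb8, Psmb9 and Psmb10 together gave 633 ± 190 CPM for Control, against 506 ± 124 CPM for Cre, a difference within the spread.

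The 20S alpha genes summed to 1012 ± 88.4 CPM for Control, against 933 and 1987 CPM for the Cre pair, and the beta genes to 1102 ± 173 CPM for Control, against 1045 and 524 CPM for the Cre pair. Cre replicate 1 thus lay near the Control mean in both rings, while Cre replicate 2 was far above it for alpha and far below it for beta genes. The 19S ATPase genes summed to 577, 632, 622, 646 and 477 CPM for Control, against 489 and 464 CPM for the Cre pair, and the non-ATPase genes to 1788 ± 410 CPM for Control, against 2135 ± 195 CPM for Cre. Neither 19S group separated the Control from the Cre libraries. The 12 other genes summed to 270, 315, 285, 365 and 252 CPM over the Control libraries, against 356 and 706 CPM over the Cre pair, where Cre replicate 2 was above all the rest.

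**Figure D3:**
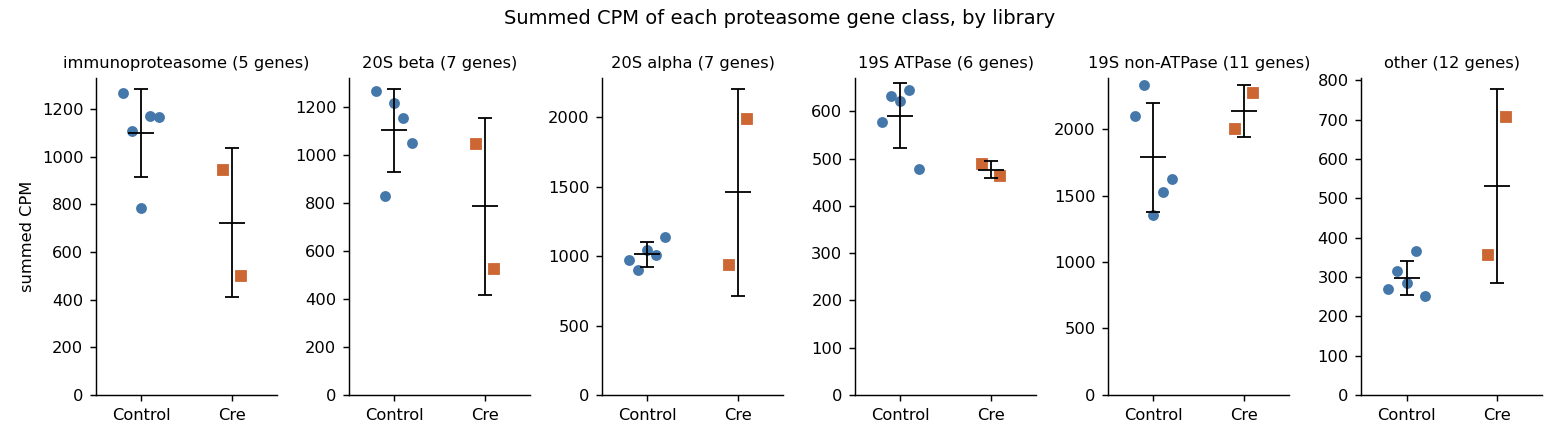
Summed level in CPM (vertical, with its own scale for each class) of the proteasome genes of each class, with circles for Control libraries, squares for Cre libraries and bars for the mean and SD. Cre replicate 2 lies outside the Control values for every class but the 19S non-ATPase genes, by 464 against a lowest Control value of 477 CPM for the 19S ATPase genes, and Cre replicate 1 lies within them for every class.

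The Cre libraries differed from each other by more than 4-fold, on the log2(CPM + 1) scale, for 14 of the 46 genes (30.4%) and for 4197 of all 9854 genes tested (42.6%). Psmd5 (0 and 227 counts), Psma4 (5 and 301), Psma6 (0 and 51), Psmg3 (24 and 311) and Psma5 (54 and 589) were much higher in Cre replicate 2. Psmb10 (324 and 7), Psmd14 (152 and 2), Psmg4 (148 and 0) and Psmb3 (444 and 34) were much higher in Cre replicate 1. Psma4, Psmg3 and Psmg4 are named here after their values were seen.

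Within Control, the median coefficient of variation was 50.9% over the 46 genes, against 75.7% over all genes tested and 56.5% over those of 30 to 300 CPM. Counting error alone would give a median of 8.73% for the proteasome genes. The median was 27.3% for the immunoproteasome genes, 47.1% for 20S, 51.5% for 19S and 79.1% for the others. The immunoproteasome median, the lowest of these, is over 5 genes that ran from 16.0% to 60.7%.

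**Figure D4:**
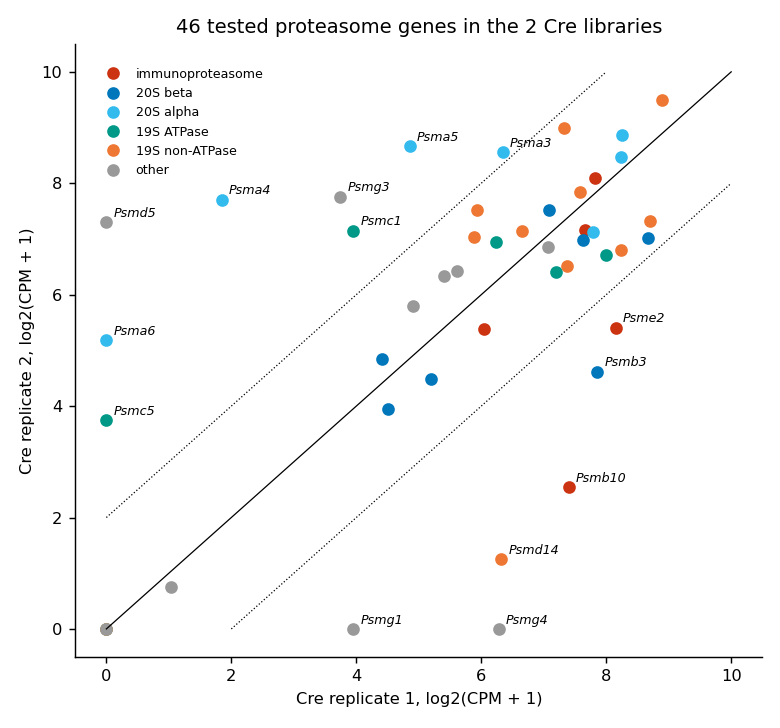
Level of each proteasome gene tested in Cre replicate 1 (horizontal) against Cre replicate 2 (vertical), as log2(CPM + 1), coloured by class, with a solid line at equal levels and dotted lines at 4-fold differences. The 14 labelled points of 46 lie beyond the dotted lines, and Psmc4, Psmd6 and Psmf1 fall together at the origin.

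Genes that act with the proteasome were taken from 4 lists. For each, the count called by edgeR was 0 in both directions. At an unadjusted p under 0.05, edgeR had 1 partner higher and 1 lower, 1 regulator higher and 3 lower, and 0 genes of the other lists. The shares over all genes tested were 1.41% higher and 10.2% lower. The proteasome partners (receptors, shuttles, deubiquitinases and unfoldases) had 21 genes tested, 9 with a fitted change above 0 and 12 below, and a median of -0.20. The shuttle factor Ubqln4, with 53, 99, 75, 58 and 0 counts over the Control libraries and none in Cre, was the 1 partner called by DESeq2 (adjusted p 0.00916). The ubiquitin and E1 genes (6 tested, median -0.10) and the class I peptide supply genes (7 tested, median -0.09) had none called by either tool. In that last list 3 genes had a fitted change above 0 and 4 below. Tapbp, its gene of smallest p, was at 265 ± 96.5 CPM for Control, against 119 ± 94.5 CPM for Cre (log2 fold change -1.13 ± 0.59, edgeR adjusted p 0.431). H2-K1 was at 2044 ± 510 CPM for Control, against 2609 ± 20 CPM for Cre, and Tap2 at 817 ± 183 and 726 ± 5.21 CPM. Each of these named genes overlapped between the groups.

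Of the 10 transcriptional regulators of proteasome genes and their processing enzymes tested, 8 had a fitted change below 0 and 2 above, with a median of -1.55, beside 60.1% below 0 and a median of -0.39 over all genes tested. DESeq2 called 1 of them higher and 2 lower, where its background was 0.355% and 6.16%. Nfe2l1 is the factor that drives proteasome genes when proteasome activity is short, after Ngly1 removes its sugars and Ddi2 cuts it. Nfe2l1 had 95, 131, 137, 46 and 250 counts over the Control libraries, against 16 and 0 over the Cre pair, below all Control libraries (81.8 ± 47.1 against 4.15 ± 5.86 CPM). Its log2 fold change was -4.20 ± 1.56, with an adjusted p of 0.422 by edgeR and 0.01 by DESeq2.

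Ddi2 had 169, 274, 295, 389 and 234 counts over the Control libraries, against 135 and 8 over the Cre pair, also below all Control libraries (log2 fold change -2.11 ± 0.88, edgeR adjusted p 0.423, DESeq2 adjusted p 0.118). Ngly1 went the other way, with 11, 6, 5, 0 and 6 counts over the Control libraries, against 119 and 83 over the Cre pair (3.47 ± 2.34 against 59.5 ± 3.12 CPM). Its log2 fold change was 4.06 ± 1.57, with an adjusted p of 0.422 by edgeR and 0.0471 by DESeq2. Nfyb, a subunit of the factor that binds CCAAT boxes, had 161, 183, 297, 122 and 288 counts over the Control libraries, against 24 and 26 over the Cre pair (130 ± 49.3 against 15.2 ± 3.89 CPM, log2 fold change -3.08 ± 0.81, edgeR adjusted p 0.323, DESeq2 adjusted p 0.00168).

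The letters CCAAT stood in 6 of 11 20S promoters (54.5%), 1 of 5 immunoproteasome promoters and 4 of 14 19S promoters (28.6%). They stood in 3 of 10 promoters of the other proteasome genes (30%) and in 41.1% of all promoters. Psma1 and Psma2, both high in Cre, hold them, as in these windows from RefSeq on GRCm38.p6 with the letters in capitals.
Psma1, chr7:114276202-114276222: gcttcctgCCAATcccacgtt
Psma2, chr13:14613180-14613200: actctcctCCAATcagagcaa
Psma3, Psma6, Psma7 and Psmb3, whose groups overlapped, hold the letters too. Outside the 20S core they stand in Psmb9 and Psmd10, which lay above all Control libraries in both Cre libraries. They also stand in Psmc1, Psmc2, Psmd4, Psmd14 and Psme3, whose groups overlapped, and in Psmb11, which was not tested. Whether the factor bound there was not measured.

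**Figure D5:**
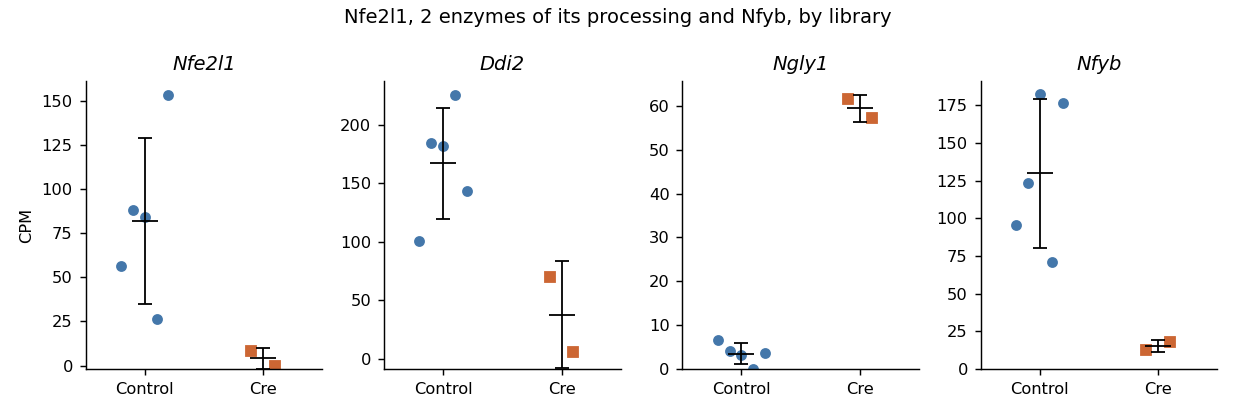
Level in CPM (vertical, linear, with its own scale for each gene) of Nfe2l1, its processing enzymes Ddi2 and Ngly1, and Nfyb, with circles for Control libraries, squares for Cre libraries and bars for the mean and SD. Nfe2l1, Ddi2 and Nfyb lie lower in both Cre libraries than in every Control library, and Ngly1 lies higher.

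Of 32 genes with counts in more than 1 region, the region with most counts was the same in both groups for 26 and another one for 3, and the last 3 had no count in Cre. For Psmb8 1 region (chr17:34201190-34201703, 265 of its 514 bases in the 3′ UTR) held 99.9% of counts, and for Psmb9 the main region (chr17:34181738-34182351, 365 of 614 bases in the 3′ UTR) held 81.9%. For Psma1 the main region held 85.2% of counts in Control and all of them in Cre, and for Psmb4 it held 47.9% and 66.8%. Regions of 47 of the 48 genes overlapped no other gene's region on the same strand. The transcript ends of 11 genes shared at least 10% of their 50-base stretches with another gene, most often a processed pseudogene, and for these the split of counts between copies is uncertain: Psme2, Psmb3, Psma5, Psmd1, Psmb5, Psma3, Psma4, Psmd2, Psmc1, Psmd11 and Psme1. Psma1, Psmb4, Psmc4, Psmc5, Psmb8, Psmb9 and Psmd6 shared no such stretch.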

How the data were processed

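Per the file headers, the deposited table holds raw counts per 3′ region, as whole numbers. Tools listed in the submitters' processing notes are FastQC 0.11.8, HISAT2 2.1.0 and DESeq2, on mm10. Which tool counted, whether by strand and with which annotation is not given in the sources used. The authors' deposited comparison gives p-values and FDR, a fold (ratio), a log2 fold change and a GC percent per gene. Each gene took the sum of its regions. Totals of 1449739 to 1929899 give a floor of 3 counts, or 1.55 to 2.07 CPM per library, for counting error only.

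The main test was edgeR 4.0.16 (R 4.3.3), quasi-likelihood, TMM, filterByExpr (count 10, total 15), over 9854 genes with Benjamini-Hochberg adjustment at 0.05, two-sided. SE is from the F statistic. DESeq2 1.42.0, limma 3.58.1 voom, other scalings and filters, the replicate block and libraries left out were alternatives. The fit was tested on simulated data. Named were the 5 immunoproteasome genes, their 3 partners, DESeq2 or edgeR calls, the 2 smallest p per class and direction, and genes at 0 in both Cre libraries. Members and lists were chosen with earlier results of these data known.

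Positions are GENCODE M21 (mm10), counted from 1. Libraries were grouped by title. No library pair agreed within sampling noise.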

Additional observations from a re-analysis of the deposited data

Results flagged for a closer look

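In 2 of the 46 proteasome genes given the check, 1 Control library lay far above the other 4, which chance gives in about 1 in 20 groups. Psme1 stood at 311 CPM (536 counts) in Control replicate 4, where the next highest Control library was at 202 CPM. Psmb10 stood at 256 CPM (432 counts) in Control replicate 1, where the next was at 120 CPM. Without Control replicate 4, DESeq2 no longer called Psme1.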

How the results depend on the processing

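With edgeR, 0 proteasome genes were called in either direction under all scalings, filters, libraries left out and added copies, and the same held with limma voom. DESeq2 called 1 higher and 5 lower, and 0 to 2 higher and 2 to 7 lower with a library left out, an alternative chosen after seeing the data (4 lower without Control replicate 2 or Cre replicate 2, 3 without Control replicate 4). Correlations of the deviations of Control and Cre libraries ran from -0.0048 to 0.0048. With 2 Cre libraries, the values for Cre replicate 2 are those for Cre replicate 1 with the sign turned. They thus cannot decide whether libraries of equal replicate number were paired. With the replicate number as a block, edgeR called 0 in both directions, the immunoproteasome median moved from -0.63 to -1.32 and the 19S median from 0.25 to -0.21. Voom put the immunoproteasome median at -1.05, and voom with library weights at -0.99. With a library left out the medians ran from -2.36 to 0.20 (immunoproteasome), -0.56 to 0.07 (20S) and -0.15 to 0.33 (19S). The 20S median of -0.08 became 0.03 with DESeq2 size factors. DESeq2 size factors and upper-quartile factors moved the median of all genes by 0.10 and -0.10. The catalytic log2 ratio difference of -0.32 was -0.82 as a mean of paired ratios, 0.27 with Psmb1 to Psmb7 below, and -0.76 to 0.12 with a library left out.

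Of 444 values of named genes under an alternative, 427 kept direction and side of the threshold, 6 passed it (all with DESeq2) and 11 turned direction, with an adjusted p under 0.05 in 0 of these. With a library left out, the turned genes ran from -1.06 to 2.76 (Psma5), -0.49 to 0.20 (Psma7), -4.68 to 0.45 (Psmb10), -1.68 to 1.64 (Psmb3), -0.61 to 1.09 (Psmb6), -6.73 to 4.31 (Psmd5) and -2.62 to 0.20 (Psme2). Psmb7 turned to 2.21 with the replicate block, 0.86 with voom and 0.49 with library weights. The causes were not tested, apart from the fewer samples when a library is left out. Counting error gave a median coefficient of variation of 8.73% in Control, against a measured 50.9%.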
